A study of Mus musculus with 6 samples.

Results

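Genes of lipoprotein assembly and HDL metabolism were followed in livers of mice that expressed wild-type or Y67F FXR. The 10 genes were taken by symbol, under a rule that names roles and no measured values but was written with earlier results of these data known: Apob and Mttp (particle assembly), Apoa1, Apoa4, Apoa5 and Apoc3 (exchangeable apolipoproteins), Lcat, Pltp and Lipc (remodelling in plasma) and Scarb1 (the HDL receptor). All 10 were among the 23284 genes of the count files and among the 12453 genes tested. FXR-floxed male mice were injected through the tail vein at 8 weeks of age with 2 kinds of AAV8 vector, and both carried the hepatocyte-specific TBG promoter. One expressed Cre, which deletes the mouse floxed FXR gene, and the other expressed FXR, either FXR-WT or the phosphorylation-defective Y67F-FXR, in which tyrosine 67 is phenylalanine. At 4 weeks after injection the mice were fed chow with 0.5% cholic acid for 6 h, and liver RNA was sequenced from 3 FXR-WT and 3 Y67F-FXR livers, 1 library per liver. Both groups therefore carried the deletion, both vectors and the bile acid load, and the FXR genes of liver cells other than hepatocytes were not a target of the TBG-driven Cre.

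FXR is the nuclear receptor for bile acids, and mice that lack it are known for raised plasma triglycerides and HDL cholesterol. Hepatocytes build VLDL on apoB, to which the microsomal triglyceride transfer protein (Mttp) adds lipid in the endoplasmic reticulum. HDL starts from apoA-I, LCAT esterifies its cholesterol, phospholipid transfer protein (Pltp) and hepatic lipase (Lipc) remodel it, and SR-BI (Scarb1) takes up its cholesteryl ester at the hepatocyte surface. ApoA-V promotes and apoC-III restrains the breakdown of triglyceride-rich particles by lipoprotein lipase.

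Of the 10 genes, 5 lie on chromosome 9. In the mm9 gene models, Apoa1 (chr9:46036713-46038549, + strand), Apoc3 (chr9:46041134-46043380, - strand), Apoa4 (chr9:46048927-46051541, + strand) and Apoa5 (chr9:46076691-46080002, + strand) form one cluster of 43290 bp with no other annotated gene between them. Lipc lies apart from it on the same chromosome (chr9:70645935-70782615, - strand). RefSeq promoter windows on GRCm38.p6, from 250 bases before to 50 bases after a start site, were matched by symbol for 8 of the 10 genes; those of Scarb1 and Apoc3 were not used here. The 250 bases before a start site are shown for Apoa5 (chr9:46268358-46268607, + strand) and Lipc (chr9:70934809-70935058, - strand), because these 2 genes, with Scarb1, had no overlap between the groups. Capitals mark 3 motifs, on the strand shown or, as their reverse complement, on the other strand. AGGTCA is the core of many nuclear receptor elements. The shorter CAAAG is found as part of many sites of the hepatocyte factor HNF4. The TATA box was searched as TATAAA.
Apoa5: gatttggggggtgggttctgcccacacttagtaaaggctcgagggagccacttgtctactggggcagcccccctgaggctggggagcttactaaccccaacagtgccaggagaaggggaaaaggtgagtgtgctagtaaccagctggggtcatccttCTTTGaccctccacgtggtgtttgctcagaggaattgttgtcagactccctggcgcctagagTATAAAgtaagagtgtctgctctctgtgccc
Lipc: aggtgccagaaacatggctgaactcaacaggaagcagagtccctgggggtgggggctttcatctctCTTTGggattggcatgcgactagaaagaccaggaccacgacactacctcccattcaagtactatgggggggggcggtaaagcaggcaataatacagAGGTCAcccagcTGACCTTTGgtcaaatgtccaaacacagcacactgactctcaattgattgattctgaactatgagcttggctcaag
The Apoa5 stretch held CAAAG on the other strand at -93 and TATAAA at -31 (the leftmost base of a match, with the start site as +1). The Lipc stretch held AGGTCA at -88 and, on the other strand, at -76, and CAAAG on the other strand at -184 and -72, the last one overlapping the AGGTCA match. RefSeq gives a second start site for each gene: that of Apoa5 lies close by, and its window added CAAAG at 30, while that of Lipc (window chr9:70952172-70952471, - strand) held CAAAG at -161 on the other strand and no AGGTCA. Of all 32851 RefSeq windows of this length, 16.3% held AGGTCA, 53.9% held CAAAG and 13.6% held TATAAA. An inverted repeat of AGGTCA with 1 base between its arms, the arrangement known for FXR, was found in 0.00913% of all windows, and its direct repeat with 1 base between in 0.0396%. No window of the 8 matched genes held either exact repeat, which says only that these letters were not in these windows. The 2 upstream stretches are given as a description, and no factor binding was measured in these libraries.

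The libraries held between 19551113 and 22053320 counted reads. Nr1h4, which encodes FXR, was measured at 186 ± 30.2 CPM (reads per 1e6 counted reads) in FXR-WT and 175 ± 9.84 CPM in Y67F-FXR livers (SD, n = 3 in each). Its log2 fold change was -0.094 (adjusted p = 0.861 by the edgeR quasi-likelihood test). Reads from the FXR transgene may be counted there, and the counts cannot tell them apart from those of the endogenous gene. The paper states that its Flag-FXR is human FXR and names no species for the AAV vectors. How far transgene reads map to mouse Nr1h4 was not tested. All CPM values use library sizes scaled by trimmed mean of M values (TMM), and every fold change is Y67F-FXR against FXR-WT. In the tissue check, 9 of 10 hepatocyte markers were found by symbol among the counted genes, and the symbol Tf was not. The 9 found summed to 90694 to 97585 CPM in FXR-WT and 94409 to 106274 CPM in Y67F-FXR livers. Kupffer cell markers (11) summed to 263 to 402 and 217 to 602 CPM, sinusoidal endothelial markers (9) to 249 to 286 and 260 to 269 CPM, stellate cell markers (10) to 224 to 244 and 168 to 225 CPM, and cholangiocyte markers (7) to 65.4 to 95.6 and 73.8 to 78.4 CPM. The 7 enterocyte markers summed to 169 to 199 and 148 to 207 CPM, of which Fabp2 made up 181 ± 15.4 and 170 ± 31.4 CPM, and Alpi, Sis, Lct and Cdx2 were at 0 in all 6 libraries. Of the 10 stellate genes 8 were fitted lower, at a median of -0.34 on the log2 scale, while 9 of 9 hepatocyte genes were fitted higher (7 with library totals), at a median of 0.19, and their part in the results was not tested. The quasi-likelihood test with TMM called 0 marker genes, with an unadjusted p under 0.05 for 3 stellate, 1 hepatocyte and 1 endothelial gene, while the likelihood ratio test and DESeq2 each called Lrat (stellate) lower and Pck1 (hepatocyte) higher, named after their values were seen. The quasi-likelihood test also called both with gene length offsets, and Lrat with DESeq2 size factors. In whole liver, fewer cells of a type and less RNA per cell cannot be told apart.

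Scarb1 was lower and the other 9 genes were not called in Y67F-FXR livers. Calls needed both a fold of more than 1.5 and an adjusted p below 0.05, and under this rule 1 of the 10 genes was called lower and 0 higher. Over all tested genes, 0.972% were called, 0.426% lower and 0.546% higher. The share called by other fits was 3.59% with the likelihood ratio test of edgeR, 3.6% with DESeq2, 1.97% with gene length offsets, 0.992% without the filter on low counts, 0.964% with library totals and 0.988% with DESeq2 size factors. With library totals in place of TMM, 43.3% in place of 56.2% of the calls were higher. The groups did not overlap for 3 of the 10 genes (Scarb1, Apoa5 and Lipc), against 20.6% of all tested genes, and 2 (Scarb1 and Apoa5) had an unadjusted p under 0.05, against 13.4%. The median log2 fold change was 0.13 for the 10 genes and 0.012 for all tested genes, with 7 of the 10 fitted higher and 3 lower. Apoa1, one of the 7, was fitted lower with library totals.

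**Figure D1:**
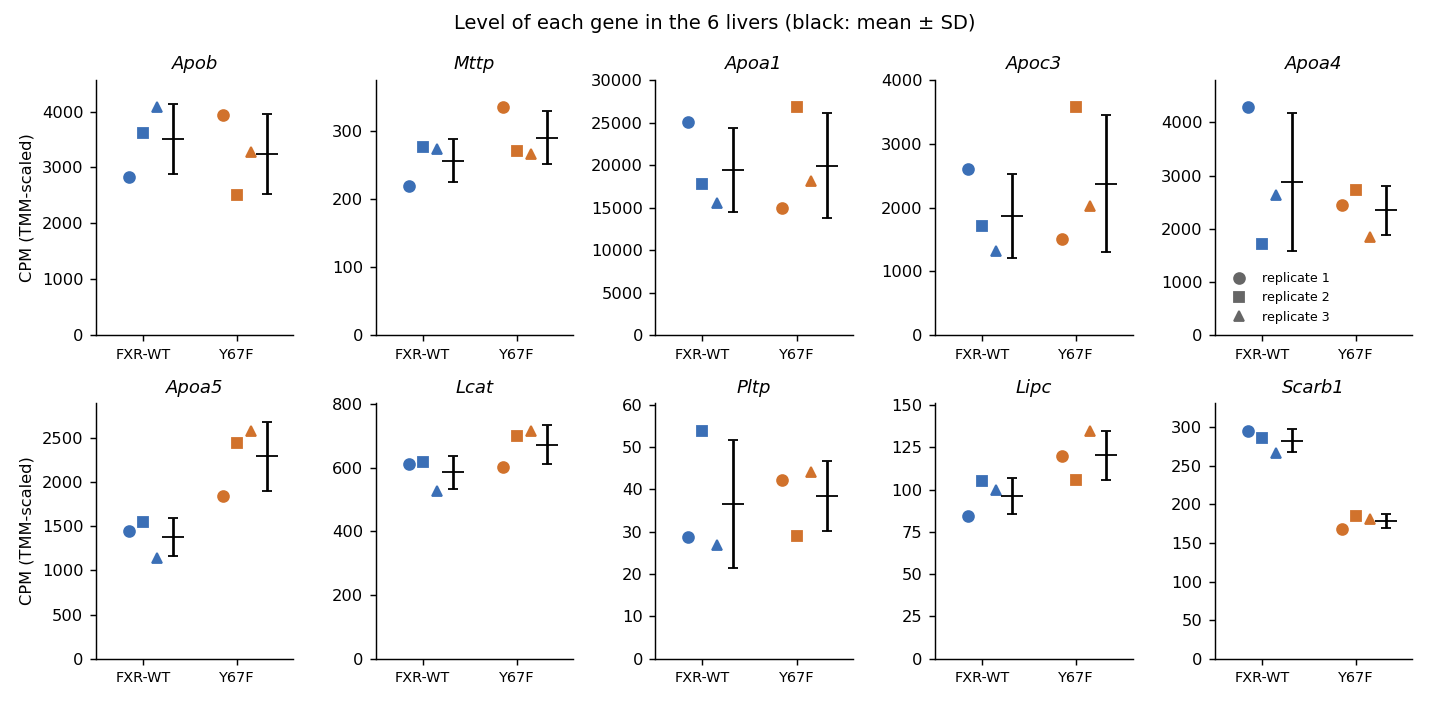
Expression of the 10 genes in each liver, in TMM-scaled CPM on a linear axis from 0 for each gene. Points are the 3 FXR-WT and 3 Y67F-FXR livers, marked by replicate, and bars are the group mean with its SD; the Y67F-FXR points lie below all FXR-WT points for Scarb1 and above them for Apoa5 and Lipc.

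Scarb1 encodes SR-BI, the receptor by which the liver takes cholesteryl ester from HDL. It was measured at 295, 285 and 266 CPM in FXR-WT replicates 1 to 3 and at 168, 185 and 180.5 CPM in Y67F-FXR replicates 1 to 3. Each Y67F-FXR liver was below each FXR-WT liver, and within each group the livers lay close together, with coefficients of variation of 5.29% and 5.00%. The mean fell from 282 ± 14.9 to 178 ± 8.89 CPM (SD, n = 3 in each), to 63.1% of FXR-WT. The log2 fold change was -0.66 (SE 0.11, 95% interval -0.92 to -0.41), with an adjusted p of 0.0429 by the edgeR quasi-likelihood test, and Scarb1 ranked 103 by p among all tested genes. The direction held without any 1 liver, with a log2 fold change of -0.70 to -0.62. The adjusted p then rose to 0.0755 to 0.221, so the call was lost whichever of the 6 livers was left out. The gene lies on chromosome 5 (chr5:125757457-125821464, - strand, mm9), with 13 exon blocks of 3100 bp in all.

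**Figure D2:**
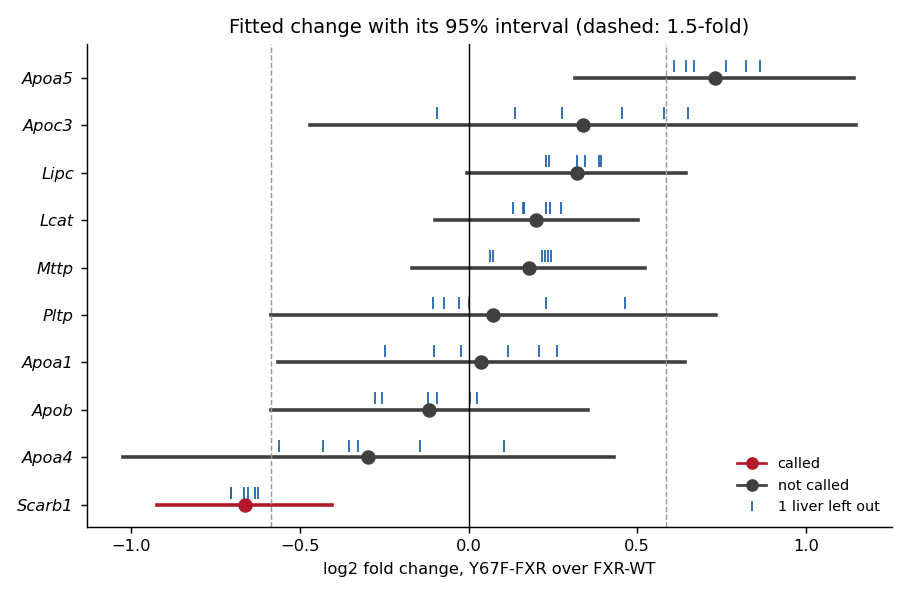
Log2 fold change of each gene, Y67F-FXR against FXR-WT, with its 95% interval from the edgeR quasi-likelihood fit. The interval of Scarb1 runs from -0.92 to -0.41 and that of Apoa5 from 0.32 to 1.14, and those of the other 8 genes include 0.

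Among the exchangeable apolipoproteins, Apoa5 was the one whose groups did not overlap. Apoa5 encodes apoA-V, a liver-secreted protein that lowers plasma triglycerides. Its values were 1449, 1552 and 1141 CPM in FXR-WT replicates 1 to 3 and 1844, 2443 and 2578 CPM in Y67F-FXR replicates 1 to 3. The lowest Y67F-FXR liver thus lay above the highest FXR-WT liver. The means were 1381 ± 214 and 2289 ± 391 CPM (SD, n = 3 in each), a ratio of 1.66. The log2 fold change was 0.73 (SE 0.18, 95% interval 0.32 to 1.14) with an unadjusted p of 0.00359 and an adjusted p of 0.124 by edgeR, so Apoa5 was not called. Over the fits that each left out 1 liver the log2 fold change was 0.61 to 0.86. The call depended on the test, since the likelihood ratio test of edgeR gave an adjusted p of 0.0192 and DESeq2 one of 0.00865, tests that called 3.59% and 3.6% of all genes.

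The other 3 genes of the cluster overlapped between the groups. Apoa1 encodes apoA-I, the main protein of HDL, and was measured at 25004, 17747 and 15507 CPM in FXR-WT replicates 1 to 3. It was measured at 14895, 26813 and 18067 CPM in Y67F-FXR replicates 1 to 3. Both the highest and the lowest liver were Y67F-FXR livers. The means were 19419 ± 4965 and 19925 ± 6172 CPM (SD, n = 3 in each), and the log2 fold change of 0.037 had a 95% interval of -0.57 to 0.64 (adjusted p = 0.979).

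Apoc3 encodes apoC-III, which slows the clearance of triglyceride-rich particles. Its values were 2601, 1709 and 1315 CPM in FXR-WT and 1510, 3576 and 2029 CPM in Y67F-FXR replicates 1 to 3. Replicate 1 of FXR-WT and replicate 2 of Y67F-FXR were high, as they were for Apoa1. Its log2 fold change was 0.34 (SE 0.35, 95% interval -0.47 to 1.15, adjusted p = 0.759). Apoa4 encodes apoA-IV, a protein of triglyceride-rich particles and HDL. Its values were 4290, 1711 and 2640 CPM in FXR-WT and 2450, 2735 and 1849 CPM in Y67F-FXR replicates 1 to 3. The highest and the lowest liver were both FXR-WT livers. The fitted change was -0.30 on the log2 scale (SE 0.31, 95% interval -1.02 to 0.43, adjusted p = 0.766), and it turned to 0.10 without FXR-WT replicate 1. Without Y67F-FXR replicate 2, the log2 fold change of Apoc3 turned to -0.093 and that of Apoa1 to -0.25.

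The annotated neighbours outside the cluster were read from the same fit. Pafah1b2 and Sik3, on the Apoa1 side, had log2 fold changes of -0.26 (adjusted p = 0.411) and 0.42 (adjusted p = 0.181). Zfp259 and Bud13, the neighbours on the Apoa5 side, had log2 fold changes of 0.25 (adjusted p = 0.473) and 0.13 (adjusted p = 0.801). None of the 4 neighbours was called.

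The assembly genes overlapped between the groups. Apob, which encodes the structural protein of VLDL and LDL (chr12:7984483-8023645, + strand, 29 exon blocks of 13909 bp in all, mm9), was measured at 2838, 3625 and 4080 CPM in FXR-WT replicates 1 to 3. It was measured at 3934, 2514 and 3278 CPM in Y67F-FXR replicates 1 to 3. The livers that were high for Apoa1 and Apoc3, FXR-WT replicate 1 and Y67F-FXR replicate 2, were the low ones of their groups for Apob. The fitted log2 change was -0.12 (SE 0.20, 95% interval -0.59 to 0.35, adjusted p = 0.882), and it was 0.0050 without FXR-WT replicate 3 and 0.026 without Y67F-FXR replicate 2. Mttp, which encodes the lipid-loading subunit of the transfer protein (chr3:137752819-137806352, - strand, mm9), was measured at 219, 277 and 273 CPM in FXR-WT and at 335, 270 and 265 CPM in Y67F-FXR replicates 1 to 3. One Y67F-FXR liver was above all others, and the remaining ones lay within the FXR-WT range. Mttp had a log2 fold change of 0.18 (SE 0.15, 95% interval -0.17 to 0.52, adjusted p = 0.696), an interval that lies within a 1.5-fold change either way. With 1 liver left out, the value for Mttp ran from 0.062 (without Y67F-FXR replicate 1) to 0.24.

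Of the remodelling genes, Lipc was the one whose groups did not overlap. Lipc encodes hepatic lipase, which hydrolyses triglyceride and phospholipid of HDL and remnant particles. Its values were 84.6, 104.8 and 99.5 CPM in FXR-WT and 120.0, 105.9 and 134.7 CPM in Y67F-FXR replicates 1 to 3. The gap between the groups, from 104.8 to 105.9 CPM, was small beside the spread within them. The means were 96.3 ± 10.5 and 120.2 ± 14.4 CPM (SD, n = 3 in each), with a log2 fold change of 0.32 (SE 0.14, 95% interval -0.0042 to 0.64, unadjusted p = 0.0524, adjusted p = 0.380 by edgeR).

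Lcat encodes the enzyme that esterifies HDL cholesterol (chr8:108463451-108467302, - strand, mm9). Its values were 611, 619 and 526 CPM in FXR-WT and 602, 700.2 and 716 CPM in Y67F-FXR replicates 1 to 3. A pair of Y67F-FXR livers lay above all FXR-WT livers and the remaining one inside their range. Lcat had a log2 fold change of 0.20 (SE 0.13, 95% interval -0.10 to 0.50, adjusted p = 0.591), and with Mttp it was one of 2 genes of the 10 whose interval lay within a 1.5-fold change, against 38.6% of all tested genes. The log2 fold change of Lcat was 0.13 to 0.28 with 1 liver left out and 0.13 with library totals. Pltp encodes the phospholipid transfer protein of plasma (chr2:164665018-164683208, - strand, mm9). Its values were 28.8, 53.9 and 27.0 CPM in FXR-WT and 42.1, 29.0 and 44.1 CPM in Y67F-FXR replicates 1 to 3. The groups overlapped over nearly their whole range, with a log2 fold change of 0.073 (SE 0.29, 95% interval -0.59 to 0.73, adjusted p = 0.956). The sign turned without FXR-WT replicate 1, FXR-WT replicate 3 or Y67F-FXR replicate 3. Pltp is also uncertain as a count, because 495 of its exon bases (27.4%) overlap Ctsa on the other strand. The counting did not use strand and left out reads that map to several genes, so reads from these bases may be missing.

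Levels between genes were compared as RPKM (CPM divided by the exonic length in kilobases). For Pltp this length includes the bases shared with Ctsa, where reads may be missing, so its RPKM may be too low. The mean RPKM over the 6 livers was 19972 for Apoa1, 4052 for Apoc3, 1568 for Apoa4, 790.5 for Apoa5, 462 for Lcat, 243 for Apob, 74.2 for Scarb1, 62.0 for Mttp, 56.4 for Lipc and 20.8 for Pltp. Along this order, the ranges over livers were apart between Apoa1 and Apoc3, between Lcat and Apob, between Apob and Scarb1, and between Lipc and Pltp. The ranges of the other neighbours overlapped. Apoc3 was still above Apoa4 and Apoa5 above Lcat in 6 of 6 livers, Apoa4 was above Apoa5 and Mttp above Lipc in 5, and Scarb1 was above Mttp in 3. Scarb1 had 91.0 ± 4.82 RPKM in FXR-WT and 57.4 ± 2.87 RPKM in Y67F-FXR livers (SD, n = 3 in each), above the mean of Mttp in FXR-WT and below it in Y67F-FXR livers. Together the 10 genes took 3.75%, 2.83% and 2.72% of all counted reads in FXR-WT replicates 1 to 3 and 2.64%, 3.69% and 2.83% in Y67F-FXR replicates 1 to 3. Apoa1 made up between 57.5% and 68.1% of these reads.

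**Figure D3:**
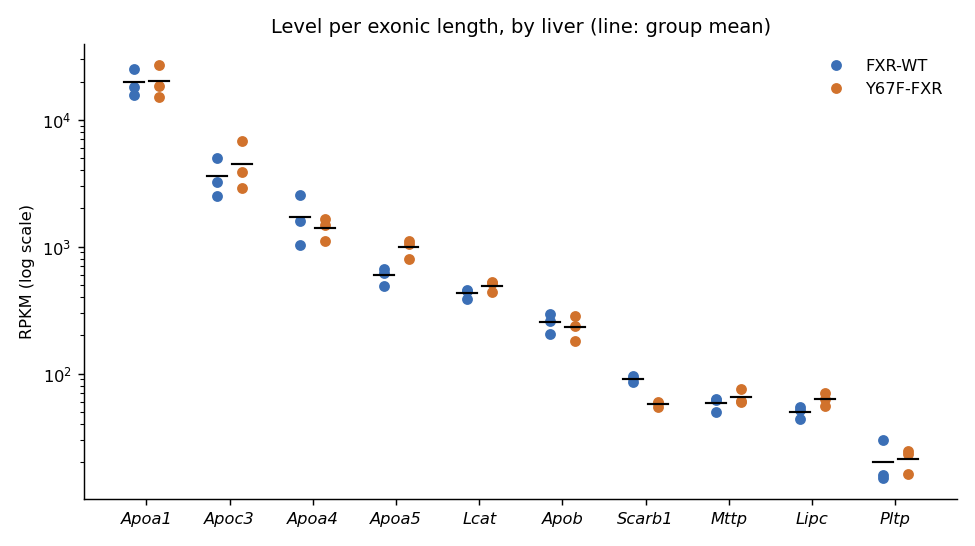
Level of the 10 genes per exonic length in each liver, in RPKM on a log axis, ordered by the mean over the 6 livers. Apoa1 stands at the top with a mean of 19972 RPKM and Pltp at the bottom with 20.8 RPKM.

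The spread of the shortest and the longest of the 10 genes within each group followed opposite orders of the livers. Relative to their group mean on the log2 CPM scale, Apoc3 (524 bp of exon) was high in 2 livers, 0.53 for FXR-WT replicate 1 and 0.69 for Y67F-FXR replicate 2, and low in another pair, -0.45 for FXR-WT replicate 3 and -0.56 for Y67F-FXR replicate 1. Apoa1 (985 bp) stood at 0.39, 0.47, -0.29 and -0.38 in the same livers. Apob (13909 bp) went the other way, at -0.29, -0.34, 0.23 and 0.30. The genes of middle length did not all follow: Pltp (1806 bp) stood at -0.27, -0.38, -0.36 and 0.16, and Lipc (1920 bp) at -0.18, -0.18, 0.053 and 0.0050. These 4 livers showed the same order over all genes, where the shortest 20% of the tested genes had a median deviation of 0.20, 0.22, -0.18 and -0.20. Each group held 1 high and 1 low library, and the differences between the groups moved little when a smooth length trend was removed from each library. The SE of Apoc3 went from 0.35 to 0.16, that of Apoa1 from 0.26 to 0.15 and that of Apob from 0.20 to 0.12, while those of Apoa4, Pltp, Lipc and Scarb1 stayed at 0.92, 0.99, 0.97 and 1.00 times their size. The log2 fold changes with the trend removed were 0.29 for Apoc3, 0.032 for Apoa1 and -0.12 for Apob, and none of these 3 was called. Scarb1 then stood at -0.67 (adjusted p = 0.0256) and Apoa5 at 0.74 (adjusted p = 0.0605). What made the libraries differ by gene length was not tested.

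**Figure D4:**
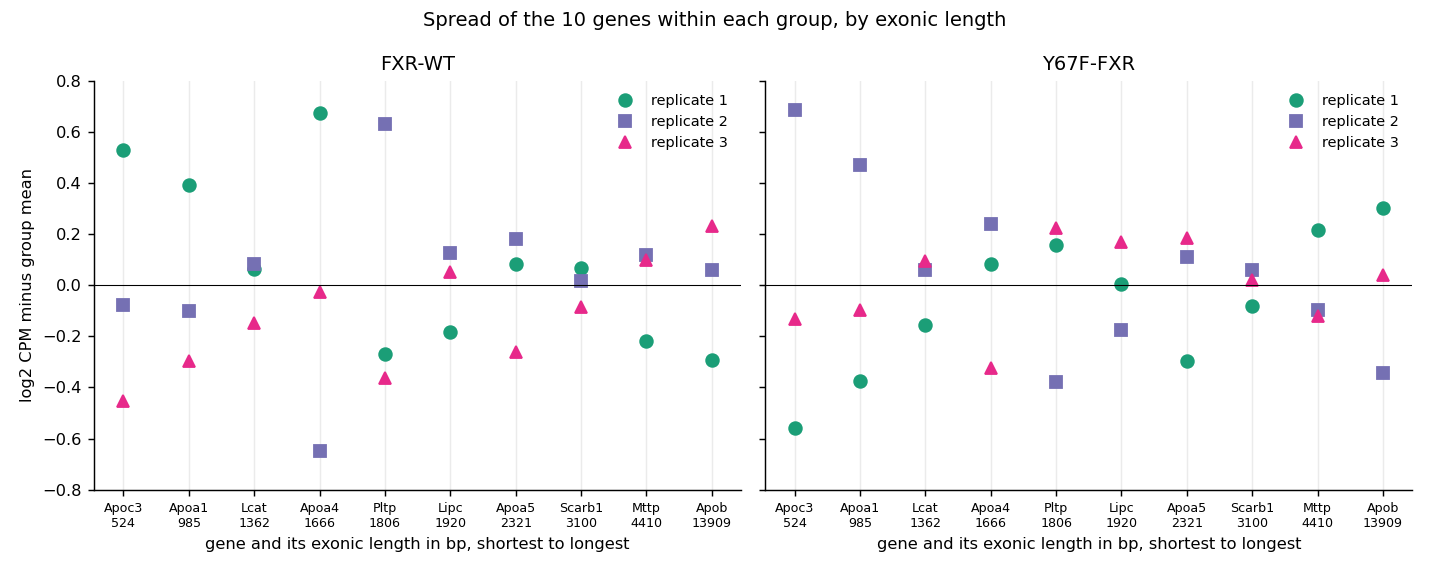
Deviation of each liver from its group mean, in log2 CPM, for the 10 genes ordered from the shortest (524 bp of exon) to the longest (13909 bp). FXR-WT replicate 1 and Y67F-FXR replicate 2 are high for Apoc3 and Apoa1 and low for Apob, and FXR-WT replicate 3 and Y67F-FXR replicate 1 show the opposite.

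Further genes of lipoprotein metabolism were read from 6 lists. Of 10 other apolipoprotein genes, 9 were tested, all 9 were fitted higher in Y67F-FXR livers and 0 were called, and 0 had an unadjusted p under 0.05. The likelihood ratio test of edgeR and DESeq2 called 0 of them too, and with library totals 6 of the 9 were fitted higher. Their median log2 fold change was 0.17, beside 0.19 for the hepatocyte markers. Apoe, a ligand of remnant receptors, had 25120 ± 2267 CPM in FXR-WT and 30635 ± 3903 CPM in Y67F-FXR livers (log2 fold change 0.29, adjusted p = 0.493). Apoa2, an HDL protein, had 9060 ± 1886 and 12410 ± 4634 CPM (log2 fold change 0.45, adjusted p = 0.562), and its log2 fold change was 0.11 without Y67F-FXR replicate 2. The 13 tested genes for the secretion of apoB particles had a median of -0.035 on the log2 scale, and 8 of them were fitted lower. Lpcat3, a phospholipid-remodelling enzyme of VLDL assembly, rose from 78.2 ± 6.37 to 125 ± 3.76 CPM (log2 fold change 0.68, SE 0.11, adjusted p = 0.0429). This call was lost whichever of the 6 livers was left out, with an adjusted p of 0.0999 to 0.186, and also with library totals. Sort1, a sorting receptor that binds apoB, had 27.6 ± 2.93 and 17.9 ± 2.87 CPM (log2 fold change -0.62, adjusted p = 0.128), and it was called lower by the likelihood ratio test (adjusted p = 0.0285), DESeq2 (0.0236) and with gene length offsets (0.0201).

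Of 12 genes for cholesterol efflux and HDL uptake, 2 fell and 1 rose, where 0.972% of all tested genes were called. Abcg1, a cholesterol exporter named after its values were seen, had 13.2 ± 1.82 CPM in FXR-WT and 7.16 ± 1.24 CPM in Y67F-FXR livers (log2 fold change -0.89, adjusted p = 0.0768), and it was called lower by the likelihood ratio test, by DESeq2 and with library totals. Abcg5 and Abcg8 encode the subunits of the transporter that exports cholesterol into bile. Abcg5 was measured at 235, 178 and 177 CPM in FXR-WT and at 89.1, 82.0 and 81.2 CPM in Y67F-FXR replicates 1 to 3. Abcg8 was measured at 247, 189 and 194 CPM in FXR-WT and at 98.0, 78.8 and 94.0 CPM in Y67F-FXR replicates 1 to 3. Every Y67F-FXR liver was below every FXR-WT liver for both genes. The log2 fold change was -1.22 for each, with adjusted p = 0.0175 for Abcg5 (SE 0.15) and 0.0176 for Abcg8 (SE 0.15) by edgeR. Both calls were lost without FXR-WT replicate 3 (adjusted p = 0.0614 and 0.0716) or without Y67F-FXR replicate 3 (adjusted p = 0.0817 for each). Cyp7a1, the rate-limiting enzyme of bile acid synthesis from cholesterol, rose from 104 ± 12.9 to 278 ± 65.3 CPM (log2 fold change 1.41, SE 0.19, adjusted p = 0.0210). Its call was lost without FXR-WT replicate 1, 2 or 3 (adjusted p = 0.0557, 0.0591 and 0.102) and without Y67F-FXR replicate 3 (adjusted p = 0.0712).

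In the other 3 lists no gene was called by the quasi-likelihood test with TMM, while 5 of 13, 3 of 12 and 5 of 22 genes had an unadjusted p under 0.05, beside 13.4% of all tested genes. The likelihood ratio test and DESeq2 each called 3 lipase and remodelling genes (Angptl4, Lipg and Gm6484) and 2 regulators (Egr1 and Nr0b2), beside 3.59% and 3.6% of all genes, where Angptl4 is named after its values were seen. The quasi-likelihood test itself called Lipg, Gm6484, Egr1 and Nr0b2 with gene length offsets, Egr1 and Nr0b2 without the filter on low counts, and Egr1 with library totals. Of 13 genes for lipases and remodelling in plasma, 5 were fitted lower and 8 higher, and the groups of 7 did not overlap, beside 20.6% of all tested genes. In the other lists the groups did not overlap for 7 of 12 efflux and uptake genes and 5 of 13 secretion genes. The same held for 5 of 12 receptor genes, 7 of 22 regulators and 0 of 9 other apolipoproteins. An unadjusted p under 0.05 was found for 6 of the efflux and uptake genes and 4 of the secretion genes. Gm6484, the older symbol of Angptl8, which encodes an inhibitor of lipoprotein lipase, had 63.3 ± 40.3 CPM in FXR-WT and 12.1 ± 6.93 CPM in Y67F-FXR livers (log2 fold change -2.39, adjusted p = 0.0969; -1.74 without FXR-WT replicate 1). Lipg, the endothelial lipase that acts on HDL, had 8.70 ± 3.31 and 22.5 ± 5.96 CPM (log2 fold change 1.37, adjusted p = 0.0969). Of 12 genes for receptors and clearance of apoB particles, 4 were fitted lower and 8 higher. Lsr, a receptor of remnant particles, had 259 ± 82.0 and 164 ± 33.5 CPM (log2 fold change -0.66, adjusted p = 0.278; -0.38 without FXR-WT replicate 1). Of 22 regulators of apolipoprotein genes, 7 were fitted lower and 15 higher. Egr1, an early-response transcription factor, had 31.0 ± 11.9 and 7.46 ± 3.11 CPM (log2 fold change -2.06, adjusted p = 0.0547), and it was called without FXR-WT replicate 2 (adjusted p = 0.0409) or Y67F-FXR replicate 2 (adjusted p = 0.0452). Nr0b2, the FXR target that encodes SHP, had 68.4 ± 11.9 and 13.3 ± 10.9 CPM (log2 fold change -2.37, adjusted p = 0.0862), and without Y67F-FXR replicate 2, at 25.9 CPM, it was called at -3.30 (adjusted p = 0.00265). The groups did not overlap for Gm6484, Lipg, Egr1 or Nr0b2, and they did for Lsr.

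**Figure D5:**
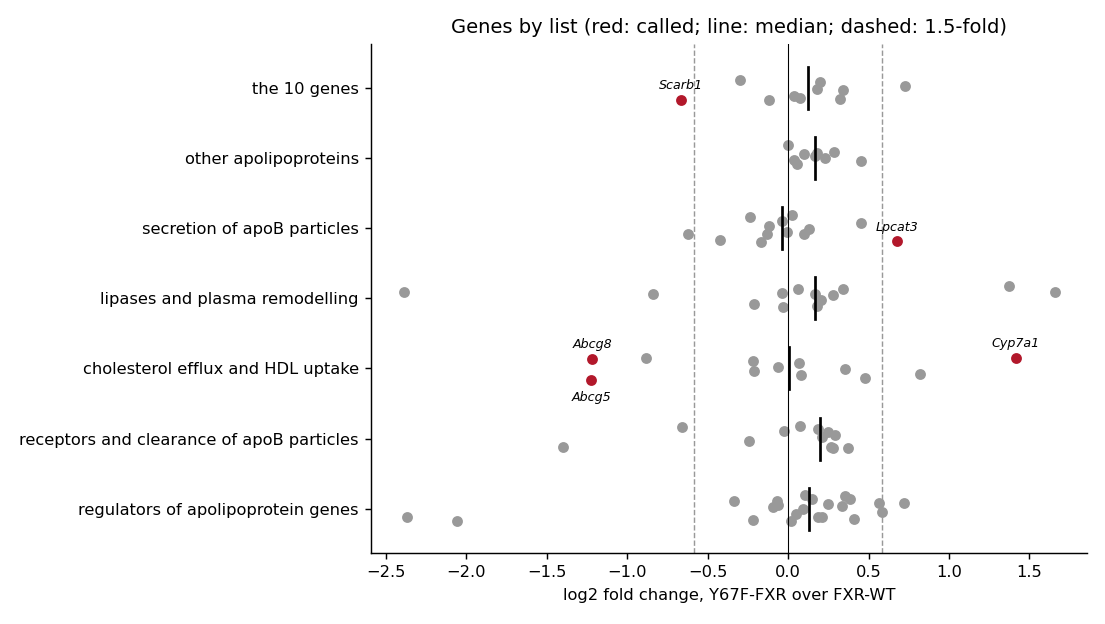
Log2 fold changes of the tested genes of the 6 lists and of the 10 genes, Y67F-FXR against FXR-WT, with called genes marked. Abcg5 and Abcg8 (both -1.22) are called lower, and Cyp7a1 (1.41) and Lpcat3 (0.68) are called higher, with Scarb1 (-0.66) called among the 10 genes.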

How the data were processed

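Liver RNA of 6 mice was sequenced as paired 100-base reads. Per the labels, the authors used Trimmomatic 0.36, STAR 2.5.3a and featureCounts 1.4.6-p4, and they deposited raw read counts per gene on mm9 gene models, without strand, with the reads of a pair counted singly and without reads that map to several places or genes. Their table of fold changes and p-values was not used. The counts were analysed here in edgeR 4.0.16 (R 4.3.3): genes with low counts were removed with filterByExpr, libraries were scaled by TMM and groups were compared with the quasi-likelihood test, with Benjamini-Hochberg adjustment over all 12453 tested genes. Calls needed both a fold of more than 1.5 and an adjusted p below 0.05. Intervals are at 95%, log2 CPM used a prior count of 2, and the scripts were tested on simulated data. Mice are numbered in the labels, and each library was taken as 1 liver. An exact permutation test of 3 against 3 livers cannot go below p = 0.10, so none is given. Named in the text are the 10 genes, Nr1h4, the neighbours of the cluster and, in each list, every called gene and the 2 genes with the smallest p, except 1 result that is not reported here. The 10 genes and the lists were chosen with earlier results of these data known. Alternatives were DESeq2 1.42.0, its size factors, library totals, the likelihood ratio test, no filter, no fold minimum, a replicate block, gene length offsets and each liver left out.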

Additional observations from a re-analysis of the deposited data

How the results depend on the processing

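Of all tested genes 121 were called, against 447 by the likelihood ratio test, 431 by DESeq2, 245 with gene length offsets and 8 with the replicate block, and from 9 (without FXR-WT replicate 3) to 66 with 1 liver left out. Of the 10 genes 1 was called (Scarb1), against 2 by the likelihood ratio test or DESeq2 and 0 with the replicate block or with any 1 liver left out. Of the listed genes 4 were called, against 12 by the likelihood ratio test, 12 by DESeq2, 9 with gene length offsets, 0 with the replicate block and from 0 (without FXR-WT replicate 3) to 5 with 1 liver left out. The median log2 fold change of the 10 genes, 0.126, was 0.0605 with library totals and from 0.0676 to 0.239 (without FXR-WT replicate 2) with 1 liver left out. With 1 liver left out, the log2 fold change ran from -0.25 to 0.26 for Apoa1, -0.56 to 0.10 for Apoa4, -0.28 to 0.026 for Apob, -0.093 to 0.65 for Apoc3 and -0.10 to 0.46 for Pltp, and Apoa1 stood at -0.040 with library totals. The other 5 of the 10 genes and the 13 listed genes that were rerun kept their direction under these alternatives, and Nr1h4, the neighbours of the cluster and the marker genes were not rerun one by one. The cause of these changes was not tested, except that fewer livers and fewer residual degrees of freedom remain when a liver is left out or a block is added.

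The replicate numbers were not taken as pairs: the deviations of livers with the same number correlated at -0.517, -0.0804 and 0.121 for replicates 1 to 3, and not every liver correlated best with its own number. With the replicate block the adjusted p was 0.239 for Scarb1, 0.0887 for Abcg5 and Abcg8, 0.232 for Lpcat3 and 0.119 for Cyp7a1. With 3 livers a group, a change within a 1.5-fold range could be bounded for 2 of the 10 genes.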
